A study of Homo sapiens with 18 samples.

Results

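The genes described here are 7 members of the MHC class II antigen presentation machinery and its regulator: HLA-DRA, HLA-DRB1, HLA-DPA1, HLA-DMA, HLA-DMB, CD74 and CIITA. They were chosen by gene symbol, and the choice was made on values of these libraries, since HLA-DRA was already known to be higher with both mimics in MCF10A cells whereas the interferon genes differed between the mimics there. Of the 7 genes, 4 were analyzed among the 15358 genes of the MCF10A table (HLA-DRA, HLA-DMA, CD74 and CIITA) and 3 among the 15257 genes of the hTERT RPE-1 table (HLA-DMA, CD74 and CIITA). HLA-DRB1, HLA-DPA1 and HLA-DMB were not analyzed here in either cell line, nor was HLA-DRA in hTERT RPE-1 cells.

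MHC class II molecules are heterodimers of an alpha and a beta chain that display peptides from endosomes to CD4+ T cells. CD74, the invariant chain, fills the peptide groove and guides the dimer to the endosome, and the HLA-DM heterodimer of HLA-DMA and HLA-DMB then removes its remnant so that peptide can load. CIITA is the coactivator that switches these genes on; it does not bind DNA itself but is recruited by the RFX, NF-Y and CREB family proteins on the class II promoters. Professional antigen-presenting cells make CIITA constitutively, whereas epithelial cells usually make it after interferon-gamma signals through its receptor and the kinases JAK1 and JAK2, with IRF1 acting on the CIITA promoter.

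PolyA+ RNAseq was conducted on 18 libraries from 2 cell lines, MCF10A, a near-normal human breast epithelial line, and hTERT RPE-1, human retinal pigment epithelial cells immortalized with telomerase. In each line, 3 libraries came from cells transfected for 72 h with 30 nM of the non-targeting siRNA siNT, 3 from cells given a mimic of hsa-miR-28-5p at that dose and time, and 3 from cells given a mimic of hsa-miR-708-5p (hereafter miR-28 and miR-708). Libraries carry the biological replicate numbers 7 to 9 (MCF10A) or 1 to 3 (hTERT RPE-1). All groups, siNT included, received a small double-stranded RNA, and no untransfected cells were analyzed here.

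The mimics belong to one microRNA family and share the seed, the stretch at bases 2 to 8 by which a microRNA pairs with its targets. The mature sequence of miR-708 is shown, from RefSeq (GRCh38.p14, chr11:79402077-79402099, minus strand), with the seed in capitals because it is what both mimics have in common.
hsa-miR-708-5p: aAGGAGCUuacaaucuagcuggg
A 7-base match to this seed (AGCTCCT, its reverse complement, or GCTCCTA, which pairs with bases 2 to 7 and ends in an A) was searched in the 3′ UTR of 1 GENCODE 44 transcript per gene. CIITA had 1 match in an annotated 3′ UTR of 12539 bases, while HLA-DRA, HLA-DMA and CD74 had 0. For reference, 18.7% of the 12943 MCF10A genes tested that have an annotated 3′ UTR held at least 1 match.

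The values are normalized read counts, that is, estimated reads on a gene divided by a size factor of the library, and the tables of the lines were scaled separately. Depth was 19.38 to 31.72 M reads on genes in MCF10A and 23.79 to 40.33 M in hTERT RPE-1. A value of 3 reads, taken as the detection floor, corresponded to 2.489 to 4.026 in MCF10A and 2.355 to 4.406 in hTERT RPE-1, and this floor covers counting error only. Fold changes are log2 differences of log2(value + 1) with the standard error (SE) of the limma fit, a scale that understates the change of low genes. A gene was called when its limma adjusted p, corrected by Benjamini-Hochberg over all genes tested in the line, was below 0.05. In hTERT RPE-1, replicate 1 of miR-28 stood apart. Ribosomal RNA genes took 15.1% of its summed values against 4.23% to 7.20% in the other 8 libraries, and its OAS1 value was 483 against 9352 and 5218 in the other miR-28 libraries.

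In MCF10A cells, CIITA, the invariant chain gene CD74 and the class II alpha chain HLA-DRA were all higher with either mimic than with siNT, and HLA-DMA was higher on average. These MCF10A values entered the choice of the genes, so they are given as a description without a test. Over all 14726 genes tested in MCF10A, 22.7% were called with miR-28 (10.7% higher and 12% lower) and 32.8% with miR-708 (15.5% higher and 17.3% lower).

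CIITA, the master coactivator, lies at chr16:10866206-10943021 (GRCh38.p14, RefSeq). Its value was 186, 245 and 154 in siNT replicates 7, 8 and 9. With miR-28 it was 772, 1226 and 1027, and with miR-708 it was 389, 892 and 627. All 6 libraries with a mimic were above all 3 siNT libraries, and the miR-28 and miR-708 ranges overlapped. The means were 195 ± 46.0 for siNT, 1008 ± 228 for miR-28 and 636 ± 252 for miR-708 (SD, n = 3 each). The log2 fold change was 2.36 (SE 0.28) with miR-28 and 1.64 (SE 0.28) with miR-708.

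HLA-DRA, which encodes the alpha chain of HLA-DR, lies at chr6:32439887-32445046. It read 9.58, 27.9 and 0.913 in siNT replicates 7, 8 and 9, the last of these under the 3-read floor. It read 107, 486 and 331.2 with miR-28 and 91.6, 322 and 233.9 with miR-708. The lowest library with a mimic was thus above the highest siNT library. The mean was 12.8 ± 13.8 with siNT, 308 ± 190.4 with miR-28 and 216 ± 116 with miR-708 (SD, n = 3 each). The log2 fold changes were 4.96 and 4.52 (SE 0.86 each). Without siNT replicate 9, the library under the floor, they were 3.89 and 3.45.

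CD74, the invariant chain gene at chr5:150401639-150412910, read 14.4, 48.5 and 14.7 in the siNT libraries. It read 200.2, 645 and 369 with miR-28, and 113, 446 and 344 with miR-708. Again no library with a mimic reached down to the siNT range. The log2 fold changes were 3.99 and 3.50 (SE 0.59 each).

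HLA-DMA, the alpha chain of the peptide exchange factor, lies at chr6:32948618-32953097 and had low values throughout. It read 7.18, 23.6 and 9.13 with siNT, 22.8, 57.2 and 56.2 with miR-28 and 22.5, 46.9 and 14.3 with miR-708. Unlike the other 3 genes, its siNT range overlapped that of each mimic, through siNT replicate 8. The log2 fold changes were 1.76 and 1.03 (SE 0.56 each). HLA-DRA and HLA-DMA had only 1 siNT library at or above the filter value of 10 and so passed the filter on low values through the libraries with a mimic.

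**Figure D1:**
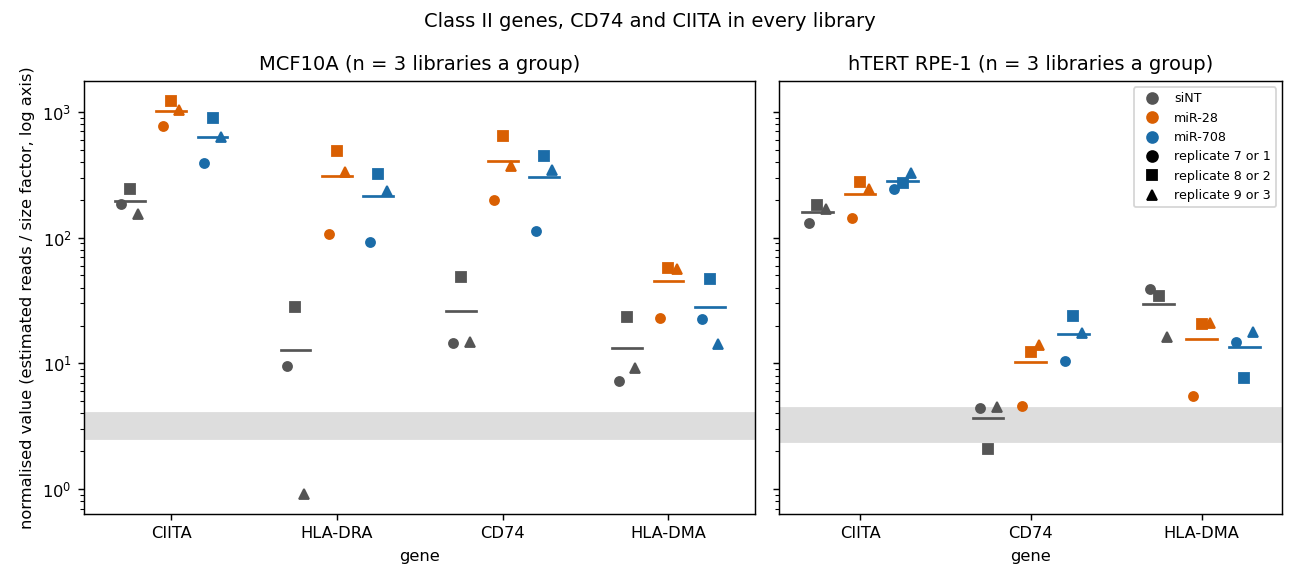
Normalized value (log axis) of CIITA, HLA-DRA, CD74 and HLA-DMA in every library, MCF10A on the left and hTERT RPE-1 on the right; points are libraries, marker shapes replicate numbers, lines group means (n = 3), and the gray band the value of 3 reads. In MCF10A the CIITA, HLA-DRA and CD74 points with a mimic sit above all siNT points, and in hTERT RPE-1 CIITA stays between 131 and 328 in all 9 libraries and CD74 reaches 24.0 at most.

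The order of the group means in MCF10A was the same for all 4 genes: siNT lowest, then miR-708, then miR-28. The difference of miR-708 from miR-28 was -0.44 for HLA-DRA, -0.49 for CD74, -0.73 for HLA-DMA and -0.72 for CIITA on the log2 scale, with overlapping libraries for every gene. The order of the mimics did not hold without miR-708 replicate 7, where the difference was 0.084 for HLA-DRA and 0.11 for CD74, nor for HLA-DRA without miR-28 replicate 8 (0.014).

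Replicate 8 was the highest library of its group for all 4 genes in all 3 MCF10A groups. Replicate 7 was the lowest with either mimic for HLA-DRA, CD74 and CIITA. The ratio of a mimic library to the siNT library of the same number is given beside the group means. For CIITA it was 4.15, 5.00 and 6.65 with miR-28 and 2.09, 3.64 and 4.06 with miR-708 in replicates 7, 8 and 9. For CD74 it was 13.9, 13.3 and 25.1 with miR-28 and 7.80, 9.20 and 23.4 with miR-708. For HLA-DRA it was 11.2 and 17.4 with miR-28 and 9.57 and 11.5 with miR-708 in replicates 7 and 8. In replicate 9, against the 3-read floor, HLA-DRA was at least 121-fold higher with miR-28 and at least 85.4-fold higher with miR-708. For HLA-DMA the ratio was between 1.57 and 6.15 in all 6 pairs.

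Across the 9 MCF10A libraries, CIITA and the other 3 genes varied together. The Pearson correlation of log2(value + 1) was 0.945 between CIITA and HLA-DRA, 0.974 between CIITA and CD74, 0.966 between HLA-DRA and CD74 and 0.849 between CIITA and HLA-DMA. With each value taken as its deviation from the group mean, these were 0.831, 0.936, 0.828 and 0.692. The points share the 3 groups, the replicate numbers and the libraries' depths, so the coefficients are descriptions.

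**Figure D2:**
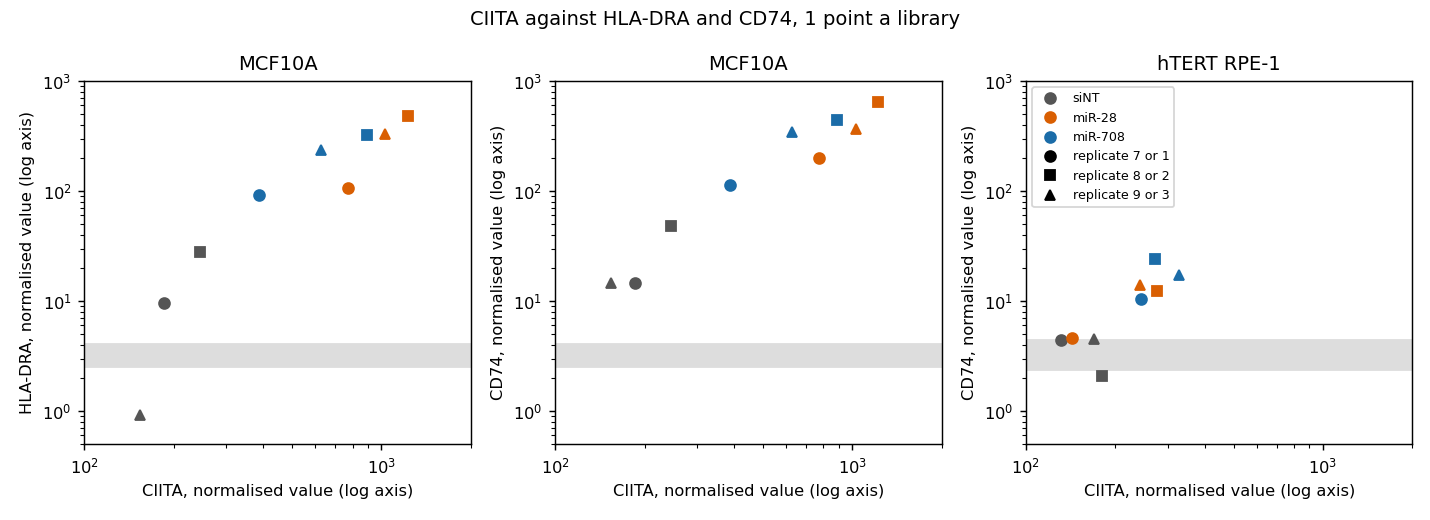
Each point is 1 library, with the CIITA value on the x axis and HLA-DRA (left) or CD74 (middle, MCF10A; right, hTERT RPE-1) on the y axis, both log axes; colors are groups, shapes replicate numbers, and the gray band the value of 3 reads. In MCF10A the points run from siNT at the lower left to miR-28 replicate 8 at the upper right (CIITA 1226, CD74 645), and in hTERT RPE-1 they stay in the lower left.

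The genes whose pattern over the 9 MCF10A libraries was most like that of HLA-DRA, among 13591 genes with a mean value of at least 20, were CA8 (r = 0.978), LINC00663 (0.968), CD74 (0.966), LINC02009 (0.962) and TNFRSF10C (0.961). CD74 was the only one of these 5 that is a class II gene. CA8, a carbonic anhydrase-related protein gene, had group means of 168 with siNT, 401 with miR-28 and 352 with miR-708. TNFRSF10C, a decoy receptor for TRAIL, had means of 32.7, 165 and 139.

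The type I interferon-stimulated genes behaved otherwise in MCF10A, which is the contrast that the choice of the genes used. Over the 20 listed genes the median log2 fold change was 0.64 with miR-28, from -0.70 to 2.34, and 6.22 with miR-708, from 1.41 to 9.22. The antiviral gene IFI6 had fold changes of 2.34 and 9.22, MX1 of 1.88 and 8.86, RSAD2 of 1.56 and 8.48 and IFI27 of 1.63 and 8.08. CIITA, with 2.36 and 1.64, had the larger value with miR-28.

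In hTERT RPE-1 cells, CIITA rose with miR-708, CD74 had higher values with either mimic than with siNT and HLA-DMA was lower on average. CIITA and HLA-DMA were not called with miR-28, and HLA-DMA was not called with miR-708. Over all 14527 genes tested in this line, 46.8% were called with miR-28 (23.3% higher and 23.5% lower) and 62.1% with miR-708 (30.9% higher and 31.2% lower), and the median absolute log2 fold change was 0.39 and 0.53.

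CIITA read 131, 181 and 169 in siNT replicates 1, 2 and 3 of hTERT RPE-1, 143, 277 and 243 with miR-28, and 243, 272 and 328 with miR-708. The 3 miR-708 libraries were above all siNT libraries, whereas miR-28 replicate 1 lay within the siNT range. The log2 fold change was 0.81 (SE 0.24) with miR-708, with a limma adjusted p of 0.0129, and 0.42 (SE 0.24) with miR-28, with a limma adjusted p of 0.175. Without miR-28 replicate 1, the library rich in ribosomal RNA, CIITA was called with miR-28 as well (0.70, limma adjusted p = 0.0101). The call with miR-708 was lost without siNT replicate 1 (limma adjusted p = 0.0546) and without miR-708 replicate 3 (0.0529).

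CD74 read 4.44, 2.07 and 4.47 with siNT, the second of these under the floor, 4.59, 12.4 and 14.0 with miR-28, and 10.4, 24.0 and 17.3 with miR-708. No library with a mimic fell into the siNT range, though miR-28 replicate 1 lay just above it. CD74 passed the filter on low values only through the libraries with a mimic, so its fold changes against siNT are given as a description. They were 1.94 (SE 0.51) with miR-708 and 1.21 (SE 0.51) with miR-28, and the latter was 1.65 without miR-28 replicate 1.

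HLA-DMA was lower on average with the mimics here. It read 38.8, 34.5 and 16.1 with siNT, 5.45, 20.6 and 21.0 with miR-28, and 14.9, 7.61 and 17.9 with miR-708. siNT replicate 3 lay among the libraries with a mimic in both comparisons. The log2 fold changes were -0.99 (95% interval -2.20 to 0.21, limma adjusted p = 0.157) and -1.08 (-2.28 to 0.13, limma adjusted p = 0.108). Leaving out miR-28 replicate 1 from the fit brought the miR-708 comparison past the threshold (limma adjusted p = 0.0404), and a fit of siNT and miR-708 alone did the same (0.0463).

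Single values of CIITA and HLA-DMA were also compared by exact two-sided permutation tests over the libraries. With miR-708 the p was 0.1 for CIITA and 0.2 for HLA-DMA, and with miR-28 it was 0.3 for each, where 0.1 is the smallest p that 3 libraries against 3 can give.

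The mimics were compared with each other in hTERT RPE-1 over these 3 genes, 0 of which were called, beside 21.2% of all genes tested. At an unadjusted p under 0.05 the count was also 0. The log2 difference of miR-708 from miR-28 was 0.39 for CIITA (95% interval -0.14 to 0.92), 0.74 for CD74 (-0.38 to 1.86) and -0.08 for HLA-DMA (-1.28 to 1.12). The intervals leave room for differences of either sign.

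The gene whose pattern over the 9 hTERT RPE-1 libraries was most like that of CIITA, among 13435 genes, was TMEM40 (r = 0.983), followed by WNK4 (0.972), EHD4 (0.964), BISPR (0.964) and BTN2A1 (0.962). BTN2A1, a butyrophilin gene close to the MHC, had group means of 1800 with siNT, 2423 with miR-28 and 2779 with miR-708. CIITA itself had means of 160.4, 221 and 281.

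HLA-DOB, the beta chain of the HLA-DO heterodimer that restrains HLA-DM, was the only 1 of 10 other class II chain genes analyzed here. In MCF10A it read 28.9 to 45.6 with siNT, 29.02 to 41.4 with miR-28 and 40.8 to 61.1 with miR-708, and was not called (log2 fold change -0.08 with miR-28, limma adjusted p = 0.876, and 0.31 with miR-708, limma adjusted p = 0.466). In hTERT RPE-1 it read 1.73, 6.08 and 1.47 with siNT, 5.45, 11.2 and 12.8 with miR-28, and 13.3, 10.5 and 19.6 with miR-708. Of the siNT libraries 2 of 3 were under the floor, and siNT replicate 2 lay above the lowest miR-28 library. Like CD74, HLA-DOB passed the filter in this line only through the libraries with a mimic, so its log2 fold changes of 1.51 with miR-28 and 2.05 with miR-708 (SE 0.53 each) are a description.

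**Figure D3:**
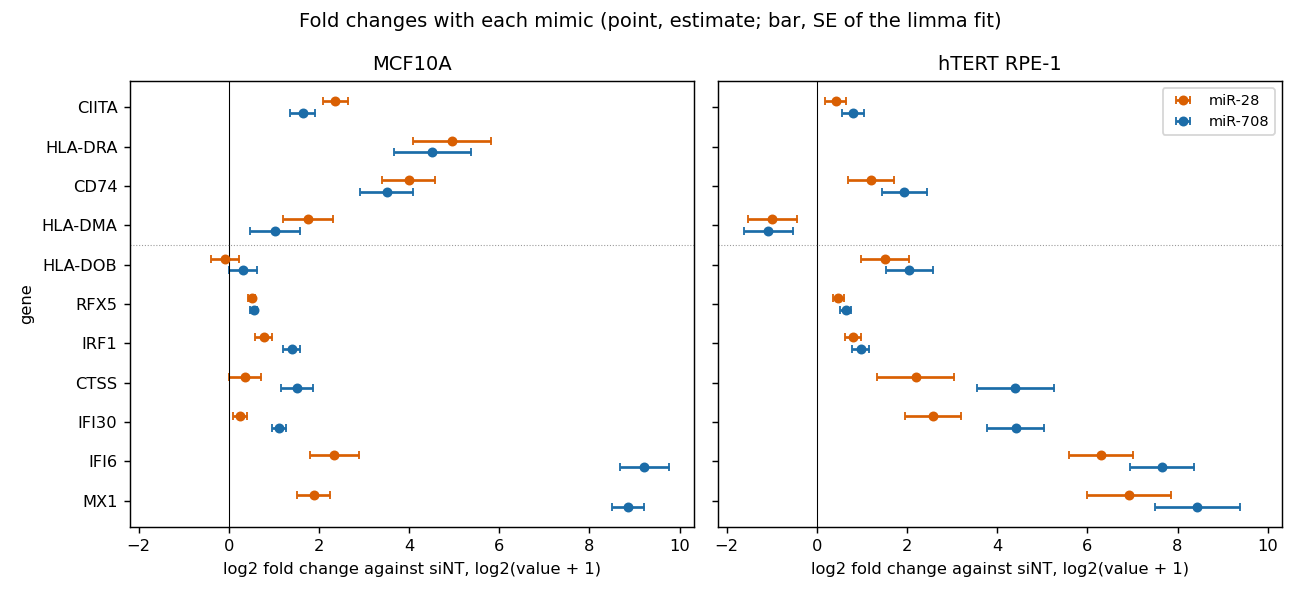
Log2 fold change against siNT (x axis, log2(value + 1) scale) of the 4 genes above the dotted line and of 7 related genes below it, in MCF10A (left) and hTERT RPE-1 (right); points are estimates, bars the SE of the limma fit, n = 3 libraries a group. In MCF10A the miR-28 and miR-708 points of HLA-DRA (4.96 and 4.52) lie together while those of IFI6 (2.34 and 9.22) lie apart, and in hTERT RPE-1 IFI6 (6.31 and 7.65) is high with both mimics while CIITA (0.42 and 0.81) is low.

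The next list holds genes for proteins that bind class II promoters and recruit CIITA. Of its 8 genes in MCF10A, 1 was called higher with miR-28 and 7 were not called. With miR-708, 1 was called higher, 1 lower and 6 were not called. Of all genes tested in MCF10A, 22.7% were called with miR-28 and 32.8% with miR-708. RFX5, the DNA-binding subunit of the RFX complex, read 1974, 1873 and 1939 with siNT, 2775, 2586 and 2893 with miR-28, and 2855, 2782 and 2834 with miR-708. All libraries with a mimic were above all siNT libraries, while the miR-28 and miR-708 ranges overlapped. RFX5 was the gene called higher in both comparisons (log2 fold changes 0.51 and 0.55, SE 0.08, limma adjusted p = 0.0020 and 6.17e-04). The gene called lower with miR-708 was NFYB (-0.43, limma adjusted p = 0.0142). NFYA, a subunit of NF-Y, had log2 fold changes of 0.06 and -0.12 and was not called.

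In hTERT RPE-1, 4 of these 8 genes were called higher with each mimic and 0 lower, beside 46.8% (miR-28) and 62.1% (miR-708) of all genes called. RFX5 rose by 0.48 with miR-28 and 0.64 with miR-708, and RFXAP, another RFX subunit, by 0.85 and 1.18. CREB1 rose by 0.43 and 0.33, and ATF1, its close relative, by 0.45 and 0.61. The miR-28 call of ATF1 was lost in a fit of 2 groups and without siNT replicate 1, siNT replicate 2 or miR-28 replicate 2 (limma adjusted p of up to 0.0856). NFYA again was not called (0.09 and -0.20). The median log2 fold change of the list was 0.26 with miR-28 and 0.23 with miR-708, beside 0.0061 and 0.0021 over all genes tested.

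The signalling genes that lead from interferon-gamma to CIITA were compared next. Of the 8 genes analyzed of 9 listed in MCF10A, 1 was called higher with miR-28 (IRF1), whereas 4 were called higher and 1 lower with miR-708. The shares called over all genes tested were 22.7% and 32.8%. Between the mimics, 0 of the 8 were called by limma, beside 1.55% of all genes, and 3 had an unadjusted p under 0.05. IFNG itself was not analyzed here. IRF1, which acts on the CIITA promoter, read 353, 547 and 433 with siNT, 591, 805 and 879 with miR-28, and 965, 1294 and 1223 with miR-708. Its log2 fold changes were 0.77 (limma adjusted p = 0.0147) and 1.39 (limma adjusted p = 3.64e-04), and the 0.62 between the mimics was not called (limma adjusted p = 0.156). The miR-28 call of IRF1 was lost without siNT replicate 7, miR-28 replicate 8 or miR-28 replicate 9 (limma adjusted p of up to 0.0581). IRF1 is an interferon-induced gene itself, and the choice of the class II genes had interferon genes of these MCF10A libraries in view. JAK2, a kinase of the receptor, was called higher with miR-708 (0.74) and not with miR-28 (0.11), and its difference of 0.63 between the mimics was not called (limma adjusted p = 0.0783). JAK1, its partner kinase, had -0.32 with miR-708, a call (limma adjusted p = 0.0351) that was lost with library size scaling (-0.18, limma adjusted p = 0.197), in a fit with no trend (0.068) and without siNT replicate 7 or 9, miR-28 replicate 8 or miR-708 replicate 8 or 9.

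In hTERT RPE-1, 5 of these 8 genes were called higher and 1 lower with miR-28, and 4 higher and 1 lower with miR-708, beside 46.8% and 62.1% of all genes called. IRF1 rose by 0.80 and 0.97 and JAK2 by 1.16 and 1.67, while JAK1 fell by 0.95 and 1.31. IRF2, a relative of IRF1, rose by 0.48 and 0.84. Its miR-28 call was lost in a fit with no trend (limma adjusted p = 0.0735) and in a fit of 2 groups (0.0849). The call was also lost without siNT replicate 2 or 3, miR-28 replicate 2 or 3 or any 1 of the miR-708 libraries (limma adjusted p of up to 0.157). In MCF10A, IRF1 and CIITA differed from siNT by 0.77 and 2.36 with miR-28, and by 1.39 and 1.64 with miR-708. For hTERT RPE-1 these differences were 0.80 and 0.42 with miR-28, and 0.97 and 0.81 with miR-708. The MCF10A values of CIITA entered the choice of the genes, and a link between IRF1 and CIITA was not tested. The tables were scaled separately and the difference between the lines was not tested.

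Endosomal genes that cut the invariant chain and antigens, reduce disulfides or carry class II were compared in the same way. Of 12 genes in MCF10A, 0 were called with miR-28 by limma, with 2 at an unadjusted p under 0.05, and 6 were called higher with miR-708: CTSS, CTSL, CTSB, LGMN, IFI30 and CD63. Over all genes tested, 22.7% were called with miR-28 and 32.8% with miR-708. Between the mimics 2 of the 12 were called, IFI30 and CTSL, beside 1.55% of all genes tested. CTSS, cathepsin S, which removes the last of the invariant chain, read 288, 193 and 89.5 with siNT, 284, 203 and 183 with miR-28, and 589, 532 and 381 with miR-708 (log2 fold changes 0.36 and 1.52). IFI30, a thiol reductase of the endosome, had 0.24 and 1.12, a difference of 0.88 between the mimics. IFI30 is an interferon-induced gene itself, and the choice of the class II genes had interferon genes of these MCF10A libraries in view. Its difference between the mimics is therefore a description, though the count of 2 includes it. Cathepsin L (CTSL) had -0.21 and 0.98, with a called difference of 1.19 between the mimics (limma adjusted p = 0.0224). Legumain (LGMN) had 0.19 and 0.65.

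In hTERT RPE-1, 5 endosomal genes were called higher and 2 lower with miR-28, and 7 higher and 3 lower with miR-708, of 12 genes and beside 46.8% and 62.1% of all genes called. IFI30 rose by 2.58 and 4.41, LGMN by 1.45 and 2.07 and CTSL by 0.67 and 1.96, while cathepsin D (CTSD) fell by 0.53 and 1.02. The miR-28 call of CTSD was lost without siNT replicate 1 or 2 (limma adjusted p of up to 0.0556). CTSS read 12.1, 10.1 and 4.40 with siNT, 9.82, 212 and 31.5 with miR-28 and 129, 316 and 179.5 with miR-708. The siNT libraries alone did not meet the filter on low values for CTSS, so its log2 fold change of 4.40 with miR-708 is a description. CTSS is still among the genes counted as called higher with miR-708. With miR-28 its log2 fold change was 2.19 and was not called (limma adjusted p = 0.0578).

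Over the 29 genes analyzed of the 39 in the lists of class II chains, promoter factors, signalling and endosomal genes, 2 were called in MCF10A with miR-28, both higher (RFX5 and IRF1), and 13 with miR-708, of which 11 were higher. The shares called over all genes tested were 22.7% with miR-28 and 32.8% with miR-708, and the 2 of 29 lie below the former. The median log2 fold change was 0.09 with miR-28 and 0.20 with miR-708, beside 0.0056 and -0.0047 over all genes. In hTERT RPE-1, 18 of 29 were called with miR-28, 15 of them higher, and 20 of 29 with miR-708, 16 of them higher, beside 46.8% and 62.1% of all genes. These counts include HLA-DOB and, with miR-708, CTSS, which passed the filter through libraries with a mimic. The medians were 0.37 and 0.33. Without MCF10A miR-708 replicate 9 the count with miR-708 was 8, and the count of 2 with miR-28 became 1 without siNT replicate 7, miR-28 replicate 8 or miR-28 replicate 9.

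**Figure D4:**
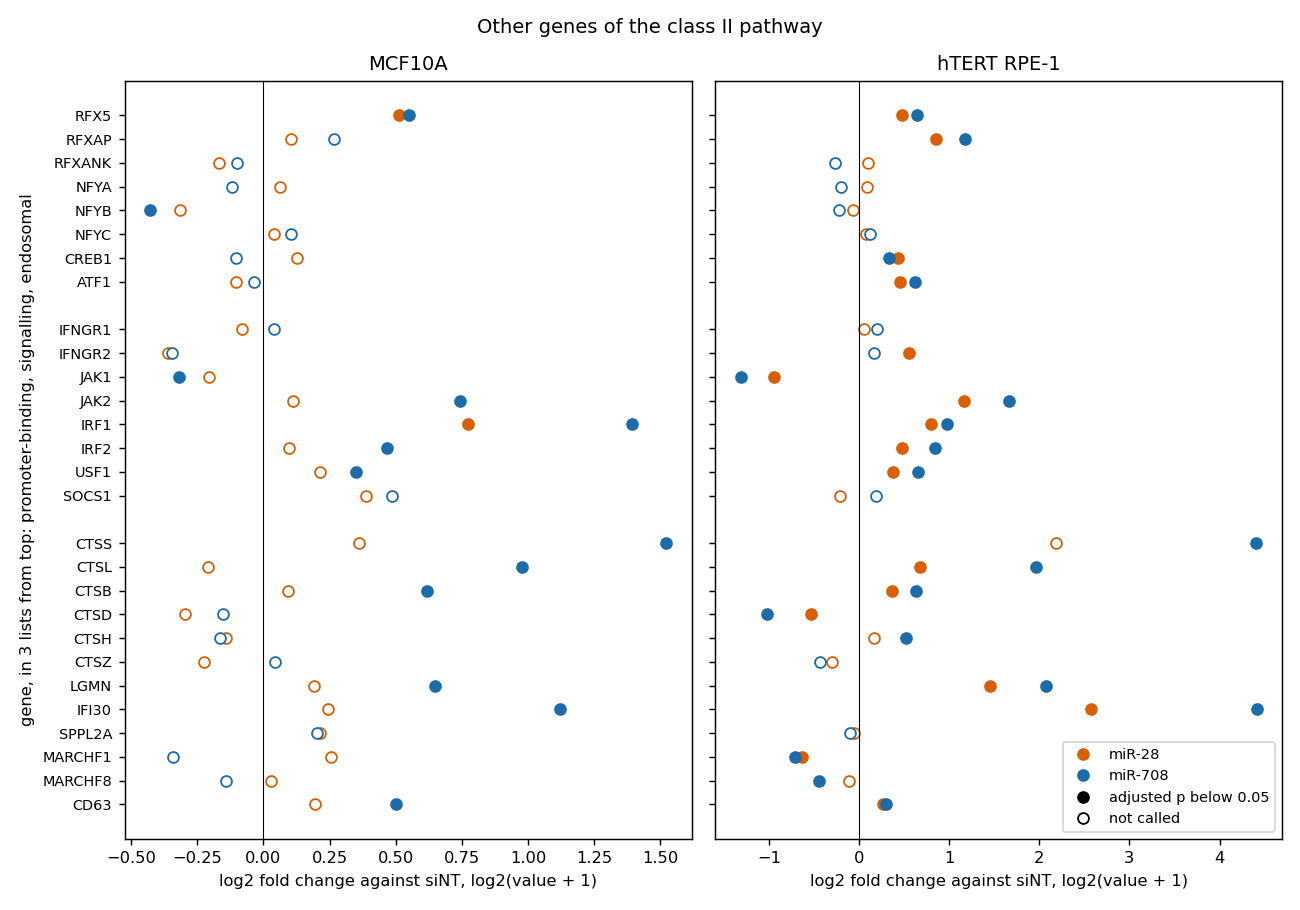
Log2 fold change against siNT (x axis, log2(value + 1) scale; the panels have different ranges) of the promoter-binding, signalling and endosomal genes, in MCF10A (left) and hTERT RPE-1 (right); filled points passed a limma adjusted p below 0.05 and open points did not, n = 3 libraries a group. In MCF10A the filled miR-28 points are RFX5 and IRF1, at 0.51 and 0.77, and most filled points belong to miR-708.

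Interferon-gamma responsive genes outside the class II pathway gave a further comparison. In MCF10A the 11 genes analyzed of 16 had a median log2 fold change of 0.36 with miR-28, from -1.31 to 2.07, and 1.74 with miR-708, from -0.26 to 4.30. TAP1, which carries peptides for MHC class I, had -1.31 and 0.43, and the guanylate-binding protein gene GBP2 had 0.86 and 1.74. In hTERT RPE-1, 6 of 10 genes were called higher with miR-28 and 8 of 10 with miR-708, and 0 lower with either. Of all genes tested in this line, 23.3% were called higher with miR-28 and 30.9% with miR-708. The immunoproteasome genes PSMB8 (1.38 and 1.85) and PSMB9 (1.98 and 3.39) rose there, as did GBP4 (4.28 and 6.90) and APOL1 (2.89 and 4.55). With miR-28 the call of PSMB9 was lost in a fit with no trend, in a fit of 2 groups and without any 1 of the siNT libraries or miR-28 replicate 2 or 3 (limma adjusted p of up to 0.0856). The miR-28 call of GBP4 was lost without siNT replicate 1 or miR-28 replicate 3, and that of APOL1 without siNT replicate 3 or miR-28 replicate 3 (limma adjusted p of up to 0.0633). All 17 type I interferon-stimulated genes analyzed in this line had positive log2 fold changes with each mimic, with medians of 5.40 and 6.89. OAS1 had 8.99 and 10.39 and OAS2 7.93 and 10.07. GBP4, OAS1 and OAS2 had siNT means of 2.91, 5.45 and 4.47 in this line and passed the filter through the libraries with a mimic. Their fold changes are therefore a description, and the counts of genes called above include GBP4.

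Promoters of the class II genes are shown because CIITA acts through the factors bound there. RefSeq windows of 250 bases before to 50 after the start (GRCh38.p14) were found for 5 of the 7 genes, and those of the genes measured here are printed 5′ to 3′ along the gene, with motif matches in capitals. The HLA-DMA window is chr6:32953048-32953347 on the minus strand, and its capitals mark the Y box core GATTGG, which NF-Y can bind, at position -80 from the start.
HLA-DMA: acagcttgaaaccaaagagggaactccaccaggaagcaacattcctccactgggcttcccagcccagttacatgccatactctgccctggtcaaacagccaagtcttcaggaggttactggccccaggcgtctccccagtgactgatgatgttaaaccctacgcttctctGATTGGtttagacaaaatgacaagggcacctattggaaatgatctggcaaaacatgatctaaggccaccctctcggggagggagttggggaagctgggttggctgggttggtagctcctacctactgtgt
The CD74 window is chr5:150412861-150413160 on the minus strand, and its capitals mark a match on the reverse strand to GAAANNGAA, the form of an interferon-stimulated response element (ISRE), at position -172 from the start.
CD74: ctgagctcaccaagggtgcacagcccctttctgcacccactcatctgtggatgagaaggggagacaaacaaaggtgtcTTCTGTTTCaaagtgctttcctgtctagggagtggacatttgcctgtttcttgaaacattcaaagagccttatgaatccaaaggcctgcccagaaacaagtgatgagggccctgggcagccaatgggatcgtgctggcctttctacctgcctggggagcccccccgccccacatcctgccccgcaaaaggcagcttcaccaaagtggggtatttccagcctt

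The motifs were searched on both strands. They were GATTGG for the Y box, TGCGTCA for a site resembling the X2 box, ATTTGCAT for the octamer, TTCNNNGAA for the interferon-gamma activated site (GAS) and GAAANNGAA for the ISRE; the search allowed overlaps. In the HLA-DRB1 window GATTGG lay at -47 and GAAANNGAA at -119 from the start, and in the HLA-DMB window they lay at -22 and -152. For HLA-DPA1, with 2 windows, the second held GAAANNGAA at -192 and the first held none of the motifs. Of 35116 RefSeq windows of the same length, 15.1% held the Y box core, 2.47% the X2-like site, 1.77% the octamer, 7.66% the GAS form and 8.11% the ISRE form. A match of letters is a description and was not tested for binding.

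The cell type labels were checked on marker genes. All 10 basal breast epithelial markers were analyzed in MCF10A, with KRT5 between 42285 and 89713. Of them 3 were called lower with miR-28 and 5 with miR-708, beside 12% and 17.3% of all genes, and 0 higher with either. KRT14 had log2 fold changes of -1.71 and -2.29. In hTERT RPE-1, 8 of 10 retinal pigment epithelial markers were analyzed. RPE65 and TYR, which define mature pigment epithelium, were not analyzed in that line. Of the 8, 2 were called higher and 4 lower with miR-28, and 1 higher and 3 lower with miR-708. The shares called over all genes there were 46.8% and 62.1%. In MCF10A, 7 of the 10 were analyzed as well, RPE65 among them. Among 14 markers of antigen-presenting leukocytes, 6 were analyzed in MCF10A, and their summed value was 514 to 794 with siNT, 681 to 850 with miR-28 and 1192 to 1352 with miR-708. Of the 5 that passed the filter, 1 was called higher and 1 lower with miR-28, and 3 higher and 0 lower with miR-708. The shares called over all genes tested were 22.7% and 32.8%. The pan-leukocyte gene PTPRC, the B cell genes MS4A1, CD79A and CD79B, and ITGAX were not analyzed in MCF10A. CSF1R, a macrophage receptor gene, read 50.3, 38.6 and 46.6 with siNT, 193, 223.1 and 291 with miR-28, and 269.9, 243 and 273 with miR-708. Its log2 fold changes were 2.35 and 2.52, both called, whereas it was called lower in hTERT RPE-1 (-0.53 and -0.55). CD14, a monocyte marker, went the other way in MCF10A with miR-28, where it was called lower (-0.87, limma adjusted p = 0.0151), and had -0.31 with miR-708, which was not called. In hTERT RPE-1, 3 of the 14 markers were analyzed, with a summed value of 626 to 738 with siNT, 699 to 3922 with miR-28 and 4961 to 7460.5 with miR-708, nearly all of it CD68. PTPRC read 3.14 to 11.4 in all 9 hTERT RPE-1 libraries. The part of other cells in the class II values was not tested, and in bulk RNA a change in the share of cells that make a transcript and a change in its amount per cell cannot be told apart.

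Neighboring genes share sequence with some of these loci. CIITA overlaps DEXI and HLA-DMA overlaps BRD2, each on the opposite strand, HLA-DMA also lies within a read-through gene with HLA-DMB, and whether reads were counted by strand is not given in the sources used here, so their reads may not be separable. CIITA also overlaps ENSG00000280153 on its own strand, which was not analyzed here. DEXI had log2 fold changes of -0.40 and -0.49 in MCF10A, and it fell by 0.39 and 0.68 in hTERT RPE-1. How reads of the overlaps were assigned was not tested. BRD2 had 0.05 and 0.13 (MCF10A) or 0.03 and -0.04 (hTERT RPE-1) and was not called. HLA-DRA and CD74 overlap no other annotated gene.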

How the data were processed

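PolyA+ RNAseq of 18 libraries was analyzed (2 cell lines, 3 groups of 3 biological replicates each, grouped by the sample labels). The authors trimmed adapters, aligned reads to hg38 with HISAT2 2.1.0 and quantified RefSeq transcripts with the expectation-maximization method of Partek Flow; the submitters' processing notes also name DESeq2. The deposited signal values are estimated read counts per gene that the authors divided by a size factor per library. Of the low values among them, 79.2% to 83.6% per library were whole multiples of a step within a tolerance of 0.02. Whole reads were therefore not recovered and no count test was run. Depth and the 3-read floor come from that step and are approximate. The authors' tables of fold changes and p-values were not used.

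The filter on low values asked for 10 or more in 3 or more of a line's 9 libraries (14726 genes passed in MCF10A and 14527 in hTERT RPE-1), and log2(value + 1) was fitted with limma 3.58.1 in R 4.3.3 as 3 group means per line with a trended prior. P-values were adjusted by the Benjamini-Hochberg method over all genes of a comparison, and intervals are 95% intervals of the fit. Exact permutation tests used numpy 2.4.6, the intervals scipy 1.17.1 and tables pandas 2.3.3 under Python 3.11.15, and figures matplotlib 3.10.9. The scripts were tested on simulated data. Alternatives were pseudocounts of 0.5 and 5, no filter, library size and upper-quartile scaling, no trend, a fit of 2 groups, a replicate block, each library left out and a 2-fold threshold.

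The genes and all lists were chosen with earlier results of these data known. Some listed genes are not reported here and are left out of the lists' counts and medians. The genes named were the 7 above, any other class II chain present, in each of the other lists up to 4 genes called with both mimics in a line by mean size, IRF1, RFX5, NFYA and CTSS, and the 5 genes most like HLA-DRA or CIITA. CSF1R, CD14, CD68, KRT5, KRT14, PTPRC, NFYB, CTSB, CD63 and FGL2 were named after their values were seen, DEXI and BRD2 for their overlap. Same-numbered MCF10A siNT and mimic libraries deviated together from their group means (correlations of 0.263, 0.176 and 0.111 with miR-28 and 0.302, 0.115 and 0.155 with miR-708), so the numbers were taken to pair them, as they were for the mimics in hTERT RPE-1 (0.278, 0.198 and 0.134). The siNT comparisons in hTERT RPE-1 did not meet this limit (at lowest 0.0214). The main fit held no replicate term, so the SEs, p-values and calls given from it leave this pairing out. With a replicate block, 29.9% of all genes tested in MCF10A were called with miR-28, 39.5% with miR-708 and 4.37% between the mimics. Differences of single pathway genes between the mimics are given from the main fit only.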

Additional observations from a re-analysis of the deposited data

Results flagged for a closer look

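HLA-DMA moved in opposite directions in the lines on average, with a log2 fold change of 1.76 (MCF10A) against -0.99 (hTERT RPE-1) with miR-28, and of 1.03 against -1.08 with miR-708. The difference between the lines was not tested, the tables were scaled separately, and its values lie between 5.45 and 57.2 in all 18 libraries.

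ATF1, a partner of CREB1, had a log2 fold change of -0.10 (MCF10A) against 0.45 (hTERT RPE-1) with miR-28, a difference that was not tested. OAS1, an antiviral synthetase gene, had -0.70 against 8.99 with miR-28, also not tested between the lines. HLA-DMA, ATF1 and OAS1 are listed because every library with the mimic lay on one side of the siNT mean in MCF10A and on the opposite side in hTERT RPE-1. No test for outlying samples was run within groups of 3 libraries, although hTERT RPE-1 miR-28 replicate 1 stood apart as described above.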

How the results depend on the processing

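In MCF10A the log2 fold changes of the 4 genes against siNT kept their sign in all alternatives. Between the mimics, leaving out 1 library gave -1.07 to 0.084 for HLA-DRA and -0.91 to 0.11 for CD74. Leaving out 1 library moved HLA-DRA between 3.89 and 5.85 with miR-28 and between 3.45 and 5.41 with miR-708, with the lowest values without siNT replicate 9. In hTERT RPE-1 the number of the 3 genes called ranged from 0 to 2 with miR-28 (2 without miR-28 replicate 1), from 1 to 3 with miR-708 (1 without siNT replicate 1 or miR-708 replicate 3) and stayed 0 between the mimics. These numbers include CD74, which passed the filter only through libraries with a mimic. With a 2-fold threshold as well it was 1 with miR-708. The pathway genes called then numbered 0 and 3 (MCF10A) or 4 and 9 (hTERT RPE-1) with miR-28 and miR-708, since the threshold removes smaller changes by construction. Leaving out 1 library gave 1 to 3 and 8 to 14 (MCF10A), or 12 to 18 and 18 to 22 (hTERT RPE-1). The shares of all genes called with the 2-fold threshold, or with 1 library left out, are not given here. With a replicate block the pathway counts were 3 and 14 (MCF10A) or 19 and 21 (hTERT RPE-1), and the calls of the 3 genes were 0, 2 and 0. The shares of all genes called with the block were 29.9% and 39.5% (MCF10A) or 48.2%, 62.6% and, between the mimics, 22.8% (hTERT RPE-1). In MCF10A the block lowered the SE of HLA-DRA from 0.86 to 0.61 and of HLA-DMA from 0.56 to 0.43. For CD74 it went from 0.59 to 0.26 and for CIITA from 0.28 to 0.17. Among named genes the block changed 3 calls, all with miR-28: APOL1 in MCF10A (1.12, limma adjusted p = 0.00497 against 0.0689), CTSS in hTERT RPE-1 (2.19, 0.0245 against 0.0578) and IRF2 in hTERT RPE-1, which lost its call (0.48, 0.0571 against 0.0446).

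Other signs turned as follows, and the cause was not tested. With library size scaling, which moved the median of all genes by 0.12 and 0.14 in MCF10A and by 0.09, 0.32 and 0.23 (miR-708 against miR-28) in hTERT RPE-1, HLA-DOB became 0.029 and ATF1 0.0092 in MCF10A with miR-28. NFYA became 0.023, ATF1 0.11 and CREB1 0.039 in MCF10A with miR-708 (ATF1 0.011 with upper-quartile scaling). In hTERT RPE-1, NFYA became 0.12 with miR-708 and HLA-DMA 0.13 between the mimics. Leaving out 1 library gave, with miR-28 in MCF10A, -0.10 to 0.74 for CTSS, -0.27 to 0.072 for HLA-DOB, -0.041 to 0.18 for RFXAP, -0.35 to 0.029 for CTSL and -0.078 to 0.24 for PSMB8. In hTERT RPE-1 with miR-28 it gave -0.052 to 0.21 for NFYA and -0.75 to 0.67 for TAP1, the highest without miR-28 replicate 1, and between the mimics -0.67 to 0.25 for HLA-DMA. The low values of HLA-DMA, CD74 and HLA-DOB limit what the depth can show.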
